A study of Mus musculus with 4 samples.

Results

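Active promoters whose DNA held few CpG dinucleotides were examined in mouse calf muscle by their H3K27ac, a chemical mark of chromatin (histone H3 acetylated at lysine 27) found at active promoters and enhancers. A promoter peak was a peak of the deposited replicated list on chromosomes 1 to 19 that overlapped 1000 bp either side of the start of a protein-coding transcript. A start was CpG-poor with fewer than 20 CpG dinucleotides within 500 bp either side of it in the mm10 sequence, and CpG-rich with 20 or more. A CpG-poor promoter peak touched CpG-poor starts and no other start. There were 1758 of them among 82994 peaks (2.12%), which is 11.96% of the 14704 promoter peaks. Another 12413 promoter peaks touched CpG-rich starts alone, and 533 touched both kinds and were kept apart as mixed.

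The tissue was the gastrocnemius, a large muscle of the calf, of female adult B6CASTF1/J mice aged 2 months. These mice are a hybrid of the C57BL/6J and CAST/EiJ strains. The series held 1 group: 2 biological replicates, each a pool of 2 tissue samples, with 2 technical libraries each. No treatment or mutation was named. The technical libraries of a replicate shared 1 alignment, so each replicate gave 1 peak list. Values are given for the replicated list, followed by those of the replicate 1 list and the replicate 2 list. These lists are the only measure of spread: a sign test over 2 replicates cannot go below an exact two-sided p of 0.5, and peaks and genes are not replicates, so no test is given. CpG dinucleotides were counted in the reference assembly, and the alleles of the other parental strain were not analysed here.

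Promoters rich in CpG dinucleotides often lie in CpG islands, which usually stay unmethylated, and many serve genes used in most cells. CpG-poor promoters more often serve genes restricted to 1 tissue, are often methylated where the gene is silent, and more often carry a TATA box, the element bound by the TATA-binding protein a short distance before the start. In skeletal muscle, E-box sequences bound by MyoD and its relatives, MEF2 sites and CArG boxes bound by serum response factor are known elements of such promoters.

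The stretches below show what a CpG-poor promoter looks like beside a CpG-rich one. Each is the 200 bases of mm10 that end just before an annotated start, read 5′ to 3′ along the gene. Capitals mark matches to a TATA box, a MEF2 site, an E-box (CAGCTG or CACCTG), a CArG box or an ETS site (CAGGAAG), with all except the TATA box read on both strands. Mybpc1 and Myh1 stand for contractile genes with a TATA box, Ckmt2 for energy metabolism, Erg for endothelium, Col6a3 for connective tissue and Fcer1g for leukocytes. Efcab2 is the CpG-rich promoter of the highest signal value.
Mybpc1: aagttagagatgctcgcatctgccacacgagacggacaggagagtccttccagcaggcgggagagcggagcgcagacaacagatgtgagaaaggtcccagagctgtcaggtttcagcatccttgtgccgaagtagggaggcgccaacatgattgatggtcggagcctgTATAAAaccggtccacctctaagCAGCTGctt
Myh1: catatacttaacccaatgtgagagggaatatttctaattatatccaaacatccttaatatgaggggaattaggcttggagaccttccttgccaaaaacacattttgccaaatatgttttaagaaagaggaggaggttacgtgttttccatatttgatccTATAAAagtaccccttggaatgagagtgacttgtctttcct
Ckmt2: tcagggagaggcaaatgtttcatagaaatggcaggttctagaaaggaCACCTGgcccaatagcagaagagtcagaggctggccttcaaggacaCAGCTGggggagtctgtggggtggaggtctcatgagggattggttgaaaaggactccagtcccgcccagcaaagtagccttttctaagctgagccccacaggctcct
Erg: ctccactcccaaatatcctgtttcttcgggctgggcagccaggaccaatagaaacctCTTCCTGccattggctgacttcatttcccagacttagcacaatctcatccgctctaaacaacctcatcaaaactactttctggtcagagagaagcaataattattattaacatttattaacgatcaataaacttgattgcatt
Col6a3: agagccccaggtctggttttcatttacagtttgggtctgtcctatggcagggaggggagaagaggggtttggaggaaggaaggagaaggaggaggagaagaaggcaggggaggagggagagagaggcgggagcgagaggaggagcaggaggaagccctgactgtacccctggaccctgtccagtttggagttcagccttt
Fcer1g: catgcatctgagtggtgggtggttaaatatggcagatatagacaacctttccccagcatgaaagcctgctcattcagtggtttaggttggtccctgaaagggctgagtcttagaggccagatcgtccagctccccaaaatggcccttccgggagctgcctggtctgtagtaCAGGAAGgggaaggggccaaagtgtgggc
Efcab2: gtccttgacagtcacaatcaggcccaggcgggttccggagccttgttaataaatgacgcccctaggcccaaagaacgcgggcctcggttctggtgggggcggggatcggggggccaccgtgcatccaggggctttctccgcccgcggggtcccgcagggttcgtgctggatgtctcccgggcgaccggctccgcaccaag

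The stretch of Mybpc1, a slow-type myosin-binding protein, lies at chr10:88605026-88605225 on the minus strand, where its TATA box begins 32 bp before the start and an E-box begins 9 bp before it. That of Myh1, the fast 2X myosin heavy chain, lies at chr11:67199911-67200110 on the plus strand and has its TATA box 41 bp before the start and 1 CpG in the 200 bases. The stretch of Ckmt2, the creatine kinase of muscle mitochondria, lies at chr13:91876886-91877085 on the minus strand, with E-boxes that begin 107 and 153 bp before the start and no TATA box. The remaining CpG-poor examples lie on the minus strand at chr16:95459246-95459445 for Erg, an endothelial transcription factor of the ETS family, chr1:90843953-90844152 for Col6a3, a chain of collagen VI, and chr1:171234366-171234565 for Fcer1g, a signalling chain of immune receptors. Erg and Fcer1g hold an ETS match, 143 and 29 bp before their starts, and Col6a3 holds no match. The stretch of Efcab2 at chr1:178405903-178406102 on the plus strand holds 18 CpG and 67.5% G and C, against 3 CpG and 40.5% in that of Erg and 10 CpG and 55.5% in that of Mybpc1.

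Acetylation at CpG-poor starts was much less common than at CpG-rich ones and rose with the number of CpG without a step at 20. Of 13278 CpG-poor starts, 2671 (20.1%) had a peak within 1000 bp, and the shares were 17.0% in the replicate 1 list and 20.0% in the replicate 2 list. Mixed peaks are counted in these shares and in those that follow. In the replicated list 2088 of the 2671 lay at CpG-poor promoter peaks and the rest at mixed peaks alone. Of 26238 CpG-rich starts 83.3% had a peak (81.2% and 83.3%), and over all 39516 starts the share was 62.1%. Among starts with 0 to 4 CpG 3.29% were acetylated, among those with 5 to 9 12.8%, with 10 to 14 29.8% and with 15 to 19 40.5%. The next class, 20 to 24 CpG, reached 46.2%, and starts with 80 or more reached 92.7%. Olfactory and vomeronasal receptor genes, which serve smell and pheromone sensing and have large families of CpG-poor starts, made up 2922 of the CpG-poor starts, and 10 of these (0.342%) were acetylated. Without them 25.7% of 10356 CpG-poor starts were acetylated (21.8% and 25.6%).

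**Figure D1:**
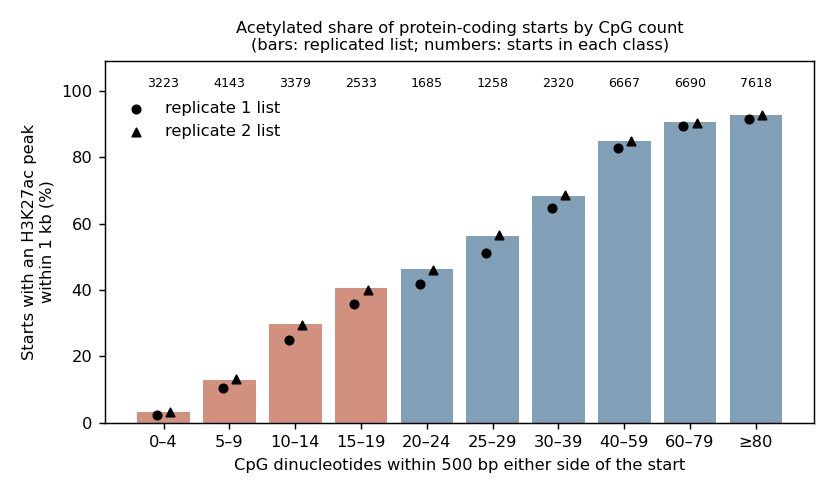
Share of protein-coding starts with an H3K27ac peak within 1 kb (%, vertical axis) by the number of CpG dinucleotides within 500 bp either side (horizontal axis). Bars give the replicated list, red below 20 CpG and blue from 20 on, points give each replicate list, and the number of starts stands above each bar. The share climbs from 3.29% to 40.5% over the CpG-poor classes and on to 92.7%, and in every class the replicate 1 list is the lower of both replicates.

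The same contrast held by gene. Of 6191 genes with CpG-poor starts alone, 923 (14.9%) had a promoter peak, 766 in the replicate 1 list and 923 in the replicate 2 list. In the replicated list 862 of the 923 had a CpG-poor promoter peak, and the others had mixed peaks alone. Of 12238 genes with CpG-rich starts alone 82.6% had one (80.5% and 82.6%). The 2270 genes with both kinds of start stood near the latter, with 79.96%, and 493 of them had a CpG-poor promoter peak. The 1758 peaks lay at 1355 genes, and 1079 of the peaks (61.4%) lay at genes with no CpG-rich start. A single start was touched by 70.5% of them and by 49.0% of CpG-rich promoter peaks.

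CpG-poor promoter peaks were weaker than CpG-rich ones. Their median signal value, the height that the authors' peak list gives each peak, was 6.23 (quartiles 3.76 and 14.02), against 24.4 (11.2 and 37.3) at CpG-rich promoters. In the replicate 1 list the medians were 6.69 and 19.5, and in the replicate 2 list 6.71 and 25.8, so the CpG-rich median was 3.92 times the CpG-poor one in the replicated list, 2.92 and 3.84 times in the others. CpG-poor peaks made up 36.3% of the decile of promoter peaks with the lowest signal values and 2.03% of the decile with the highest. Of the CpG-poor peaks 11.3% passed the CpG-rich median. They were also narrower at the median, 1205.5 bp against 1790 bp (1111 against 1474 bp, and 1175 against 1768 bp). Yet 80 of them (4.55%) spanned 8000 bp or more, against 2.88% of CpG-rich peaks, and the shares were 2.70% against 1.27% in the replicate 1 list and 4.16% against 2.81% in the replicate 2 list.

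Set beside CpG-rich peaks of the same range of signal value, CpG-poor promoter peaks were the wider in every quintile (5 equal classes of promoter peaks by signal value) of each list. In the lowest quintile, which held 926 of the 1758, the medians were 620 bp against 526.5 bp. They were 2197 bp against 1252 bp in the second quintile, and 4108 bp against 1746 bp in the third. In the highest quintile 68 CpG-poor peaks had a median of 6381.5 bp and 2735 CpG-rich peaks one of 2925 bp. The highest quintile gave 5593.5 bp against 2439 bp in the replicate 1 list and 6235 bp against 2869 bp in the replicate 2 list. The difference in bp was smallest in the lowest quintile, where 926 of the 1758 CpG-poor peaks fell. It grew from each quintile to the next in the replicated list and in both replicate lists. Both medians rose as well, and their ratio did not grow at every step in any of these lists. In the fourth quintile of the replicated list they were 5012 bp against 2196 bp.

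**Figure D2:**
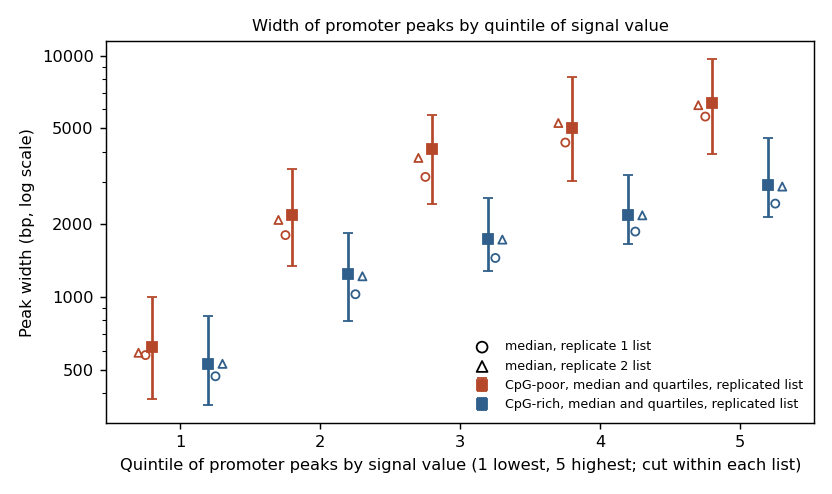
Width of promoter peaks (bp, log scale) by quintile of signal value, with quintiles cut within each list over all promoter peaks. Squares and bars give the median and quartiles of the replicated list for CpG-poor (red) and CpG-rich (blue) peaks, and open symbols give the medians of both replicate lists. The red medians lie above the blue ones in every quintile, from 620 against 526.5 bp in the lowest to 6381.5 against 2925 bp in the highest.

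CpG-poor promoter peaks stood alone at a lower share than CpG-rich ones. Of the CpG-poor peaks 233 (13.3%) had no other peak within 10000 bp, against 25.6% of CpG-rich peaks (14.04% against 27.9%, and 12.6% against 24.996%). Among the 68290 peaks at no coding start the share was 10.99%. CpG-poor peaks were centred less tightly on the start than CpG-rich ones. The summit was a median of 388 bp from the nearest touched start, against 194 bp, and it lay within 500 bp in 57.8% against 87.9% (58.4% against 87.5%, and 56.3% against 86.9%). It lay on the gene side of the start in 62.4% and 69.5%. Positions just inside the gene were the most often covered: taking the start nearest to each promoter peak, 77.8% of the CpG-poor ones lay in a peak at 150 bp past the start, while the CpG-rich curve reached 95.9% at 200 bp. Away from the start the order turned round. At 5000 bp before these starts 21.96% of those at CpG-poor peaks and 10.2% of those at CpG-rich peaks were covered, and at 5000 bp past it 22.5% and 16.6%.

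**Figure D3:**
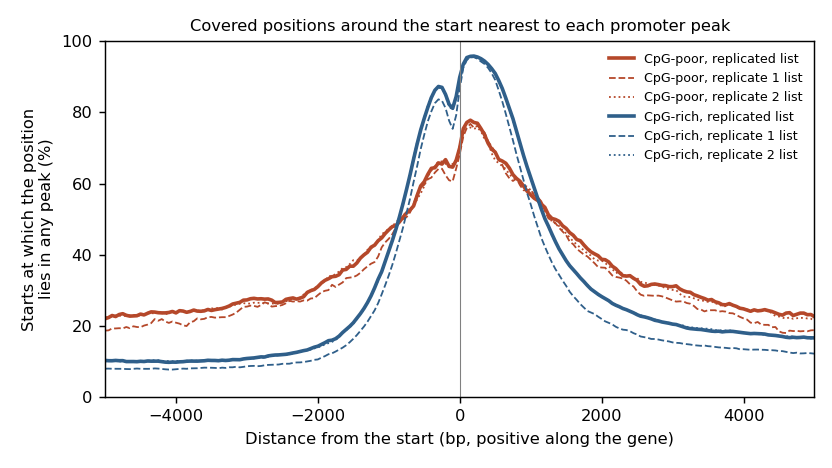
Percent of starts (vertical axis) at which a position lies in any peak of the list, from 5 kb before to 5 kb past the start nearest to each promoter peak, positive along the gene. Red lines are CpG-poor and blue lines CpG-rich promoter peaks, solid for the replicated list, dashed for replicate 1 and dotted for replicate 2. The blue curves reach 95.9% and are narrow, and the red curves reach 77.8% and stay above the blue ones at 5 kb on both sides.

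The share of CpG-poor peaks that overlapped peaks of both replicate lists lay between that of CpG-rich peaks and that of peaks of all kinds. The replicated list was itself made from both replicates, so these shares are not an independent measure of replication. A peak was called shared where at least 50% of the shorter of the overlapping peaks was common to both. By that measure 1278 of 1758 (72.7%) were shared with both replicate lists, against 92.8% of CpG-rich peaks and 90.6% of all promoter peaks. Over all 82994 peaks the share was 63.3%. The rest were shared with the replicate 2 list alone (285), with neither list (163) or with the replicate 1 list alone (32). The peaks not shared were nearly all weak. In the lowest quintile of signal value 48.3% of CpG-poor and 55.5% of CpG-rich peaks were shared, in the second quintile 99.8% and 99.3%, and in the higher quintiles all were. Across the 1278 shared peaks the signal values of both replicate lists had a Spearman correlation of 0.93, a description over peaks of the same tissue. The highest signal values among peaks shared with neither list were at Hrh1, the histamine H1 receptor (4.51), Aif1, a macrophage protein (4.38), Syt8, a synaptotagmin (4.35), and Trim30d (4.12).

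The strongest CpG-poor promoter peak lay at Pde4b, a phosphodiesterase that breaks down cAMP (chr4:102567306-102592958), with signal values of 58.2 in the replicated list, 38.3 in the replicate 1 list and 57.8 in the replicate 2 list. It was also among the widest, at 25653 bp. Plin4, a coat protein of lipid droplets, followed with 57.1 (45.9 and 58.2) over 5716 bp at chr17:56106474-56112189. Dmpk, the protein kinase of myotonic dystrophy, had 55.2 (46.2 and 53.0) over 5329 bp at chr7:19081244-19086572. The remaining 9 of the 12 strongest had signal values of 50.3 to 55.05. They lay at Impact, a regulator of translation, Ldb3, which anchors actin at the Z-disc, Nmrk2, a nicotinamide riboside kinase, Ckmt2, Fxyd1 with Lgi4, Srl, the calcium-binding sarcalumenin, Plpp7, Chd2, a chromatin remodeller, and Hhatl. The 12 were taken among peaks shared with both replicate lists, so their overlap with both follows from that choice. Each list has its own scale of signal values, so the values of different lists are set side by side and not compared in size.

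In some of these the strongest acetylation was not at the CpG-poor start. The summit of the Nmrk2 peak lay 8945 bp past the start and that of Impact 1717 bp past it, and stretches with 108 and 80 CpG, as long as the window around a start, lay inside those peaks. At Plin4, Ckmt2 and Srl no such stretch held more than 17 CpG. Over all members, 424 (24.1%) held 20 or more CpG in some stretch of that length inside the peak. These had a median signal value of 15.4 and a median width of 3306.5 bp, and a wider peak has more stretches in which to reach 20. The other 1334 had 4.90 and 874.5 bp, and 64.8% of them were shared with both replicate lists. The 3 strongest peaks whose starts held at most 5 CpG, at Pdcl3 (41.6), Rcc1 (38.6) and Lrg1 (29.6), all had such a stretch, with 58 to 70 CpG, and summits 1424 to 2296 bp from the start. A CpG-rich coding start lay within 5000 bp of the edge of 245 members.

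The widest were at starts within Klf13 and E030018B13Rik, where 1 peak spanned 35632 bp (chr7:63893000-63928631), at Capzb, the beta subunit of the actin capping protein (30288 bp), and at Tnnt3, the fast troponin T (29967 bp). The overlapping peak of highest signal value in the replicate 1 list was shorter at each: 24669 bp, 11122 bp and 22504 bp. All overlapping peaks of that list together covered 98.8%, 90.6% and 93.5% of these regions. In the replicate 2 list the overlapping peak of highest signal value spanned 27469 bp, 18188 bp and 32314 bp. Pde4b, G430095P16Rik (24150 bp), Tns1, a focal adhesion protein (21990 bp), Adgrg1 (18813 bp) and Tnk2 (18504 bp) completed the 8 widest. Of these 8 peaks 6 were at a gene that also has a CpG-rich start elsewhere, and at Klf13, Tns1, Adgrg1 and Tnk2 the summit lay 11604 to 19393 bp from the touched start.

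Most muscle genes with a CpG-poor start had an acetylated one. Of 159 genes in 9 lists of muscle genes, 92 had a CpG-poor start, and 73 of those 92 (79.3%) had a CpG-poor promoter peak, against 16.0% of the 8461 genes with a CpG-poor start over the whole annotation. The median signal value of the highest such peak was 31.1 for the 73 genes and 8.46 for all 1355 genes, and the median widths were 5042 and 1603 bp. Peaks of 68 of the 73 (93.2%) were shared with both replicate lists, against 1080 of the 1355 (79.7%). Nearly all promoter peaks above the lowest quintile of signal value were shared, as given above. In 39 of the 73 genes the highest peak held 20 or more CpG in some stretch as long as the window around a start. The same held for 400 of the 1355 genes, and a wider peak has more such stretches. Of the 100 strongest members 34 belonged to these lists, which held 73 of the 1355 genes. The lists were drawn up with earlier results of these data known, so these shares describe the lists and support nothing beyond them. A weak peak can mean fewer nuclei of a type or less acetylation in each nucleus, and in whole tissue these cannot be told apart.

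In the list of fast-fibre contractile genes 6 of 10 genes with a CpG-poor start had such a peak, with a median signal value of 38.2. In the replicate 1 list 6 genes had one, and in the replicate 2 list 4. The replicate values given are those of the overlapping peak, which need not be a CpG-poor promoter peak in that list. Atp2a1, the fast calcium pump of the sarcoplasmic reticulum, had 48.5 in the replicated list, 39.1 in the replicate 1 list and 48.1 in the replicate 2 list (chr7:126452101-126469384, 17284 bp). Tnnt3 had 46.96 (29.0 and 51.4), Tnni2, the fast troponin I, 43.2 (34.2 and 34.5) and Tnnc2, the fast troponin C, 33.2 (26.5 and 49.4). At Tnnc2 the replicate 2 peak spanned 13141 bp in place of 8630 bp. The lowest was Myh1, with 8.04 (8.52 and 9.15) over 3121 bp at chr11:67200082-67203202. Pvalb, the calcium buffer parvalbumin, had 15.95 (11.6 and 46.8), where the replicate 2 peak spanned 9206 bp in place of 1714 bp. The other 4, Myh2, Myh4, Myl1 and Mylpf, had a mixed peak that also touched a CpG-rich start, with signal values of 9.01 to 31.2.

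CpG-poor promoter peaks of slow-fibre contractile genes had low signal values. Of 10 genes with a CpG-poor start 9 had one, 6 in the replicate 1 list and 8 in the replicate 2 list, with a median of 3.88. Mybpc1 stood highest at 15.4 (13.0 and 16.7) over 4431 bp at chr10:88600751-88605181. Next were Myl3, a slow myosin light chain, at 5.67 (3.79 and 7.61), Tnnc1, the slow and cardiac troponin C, at 4.64 (4.26 and 4.70) and Myl2 at 4.25 (3.55 and 4.47). Myh7, the slow myosin heavy chain, had 2.97, overlapped no peak of the replicate 1 list and had 3.36 in the replicate 2 list. Myh7b and Tpm3, the lowest at 2.32, overlapped a peak of neither. Tpm3 also has CpG-rich starts, which that value does not describe. Among these CpG-poor promoter peaks that of Mybpc1 alone passed the lowest of the fast list, Myh1, in the replicated list. The gene without such a peak, Casq2, had a mixed peak that also touched a CpG-rich start. Its signal value of 9.78 (8.29 and 10.07) passed that of Myh1 too.

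Structural genes of the sarcomere had peaks at nearly every CpG-poor promoter, 16 of 17, in both replicate lists as well. Ldb3 led with 54.3 (39.5 and 57.7) over 13347 bp at chr14:34580516-34593862. Ttn, the giant spring protein titin, had 49.4 (37.8 and 51.3), Myoz3 47.1 (38.7 and 46.8) and Myoz1, a calcineurin-binding Z-disc protein, 46.8 (36.7 and 46.99). The summit of the Myoz3 peak lay 4149 bp before the start. A stretch inside that peak, as long as the window around a start, held 90 CpG. The lowest was Ankrd1, a stress-responsive ankyrin repeat protein, with 3.74 (4.50 and 2.04) over 415 bp. The list thus ran over nearly the whole range of signal values of CpG-poor promoter peaks.

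Genes of excitation-contraction coupling, the link from membrane voltage to calcium release, had 8 of 10, with signal values of 28.4 to 51.3. Srl had 51.3 (39.5 and 52.8), Asph, whose products include junctin, 47.6 (35.6 and 47.6), Clcn1, the muscle chloride channel, 42.2 (29.5 and 43.6) and Jsrp1 42.1 (31.5 and 44.1). The lowest was Mrln, which encodes the small calcium pump inhibitor myoregulin, at 28.4 (24.9 and 27.7). Sln, which encodes sarcolipin, another inhibitor of the pump, had no promoter peak. In energy metabolism 10 of 12 had one, at 31.1 to 52.0. Ckmt2 had 52.0 (41.1 and 53.8), Ckm, the cytosolic muscle creatine kinase, 49.8 (39.8 and 49.6), Cox6a2, a muscle subunit of cytochrome c oxidase, 48.4 (38.8 and 48.6) and Ucp3, a mitochondrial carrier, 43.0 (33.6 and 43.2). Mb, the oxygen store myoglobin, was lowest at 31.1 (22.5 and 36.7). Every gene named here with a peak had values above 20 in both replicate lists, but a member of the energy list not named had 19.7 in the replicate 1 list.

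Among regulators of muscle genes 7 of 10 had a CpG-poor promoter peak. Smyd1, a methyltransferase needed for myofibrils, had 41.0 (31.3 and 42.7), Mef2c 37.1 (24.7 and 40.0), Tead1 28.8 (19.9 and 31.8) and Mstn, the growth inhibitor myostatin, 19.6 (14.9 and 21.9). Sox6, a repressor of slow genes, was lowest at 4.48 (3.87 and 4.92). At the neuromuscular junction 5 of 7 had one: Rapsn, which clusters acetylcholine receptors, at 31.0 (20.2 and 36.0), Musk, the receptor kinase of the synapse, at 15.2 (13.2 and 14.8), Colq at 10.8 (8.29 and 13.3), Chrne, the adult receptor subunit, at 10.04 (9.23 and 8.22) and Chrna1 at 2.48, with none in the replicate 1 list and 2.80 in the replicate 2 list. Chrnd and Chrng, which encode the delta subunit and the fetal gamma subunit, had no promoter peak. Chrne and Chrng thus differed in having a peak in the replicated list, and Chrnd lacked one as Chrng did.

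The dystrophin complex and membrane repair had 4 of 6, among them Capn3, a muscle protease, at 44.1 (34.8 and 45.6), Sgca, which encodes alpha-sarcoglycan, at 41.0 (31.7 and 43.2) and Dtna at 22.5 (19.2 and 25.2). Atrophy genes and muscle ubiquitin ligases had 8 of 10. Asb2 stood at 44.9 (35.8 and 45.4), Klhl31 at 40.4 (33.1 and 40.4), Klhl38 at 32.7 (27.9 and 32.7) and Asb14 at 31.8 (28.4 and 36.6), and Trim55, a titin-binding ligase, was lowest at 18.9 (15.6 and 25.8). None of the genes of either list with a CpG-poor start lacked a promoter peak.

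**Figure D4:**
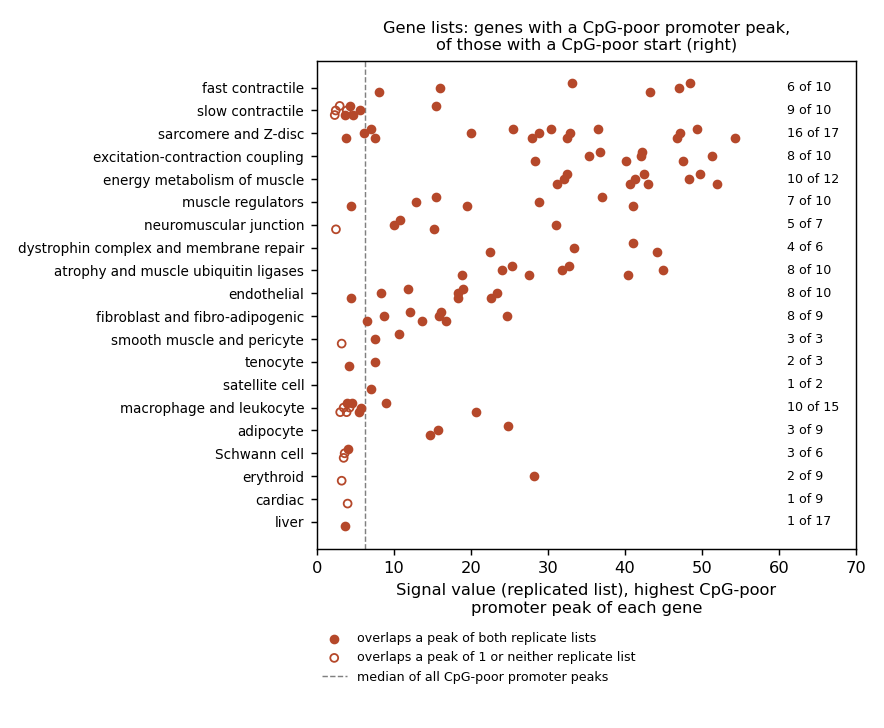
Signal value in the replicated list (horizontal axis) of the highest CpG-poor promoter peak of each gene, 1 point a gene, for 20 gene lists. Filled points overlap a peak of both replicate lists and open points do not, the dashed line is the median of all CpG-poor promoter peaks (6.23), and the right column counts genes with such a peak of those with a CpG-poor start. Energy and coupling genes lie between 28.4 and 52.0, and slow contractile genes other than Mybpc1 lie below the dashed line.

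CpG-poor promoters of the other cell types of muscle tissue were acetylated too. Endothelial markers had 8 of 10, with a median signal value of 18.3: Erg at 23.4 (19.2 and 25.1), Tek, an angiopoietin receptor, at 22.6 (20.4 and 20.2), Cdh5, the endothelial cadherin, at 18.9 (16.3 and 19.2) and Pecam1 at 18.3 (12.8 and 20.1), with Ptprb lowest at 4.38 (4.03 and 4.30). Fibroblast markers had 8 of 9, with a median of 14.7. Col6a3 had 24.7 (16.8 and 28.4), Dpt 16.7 (11.6 and 18.6), Col3a1, the chain of collagen III, 16.2 (13.5 and 14.8) and Dcn, the proteoglycan decorin, 15.9 (14.7 and 16.4), and Pi16 was lowest at 6.57 (6.39 and 5.82). The summit of the Col6a3 peak lay 5420 bp past the start. That peak spanned 7962 bp, and its overlapping peak in the replicate 1 list 2327 bp. Genes of both lists lay below the medians of the fast contractile, sarcomere, coupling and energy lists.

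Macrophage and leukocyte markers had 10 of 15, at a median of 4.38. Fcer1g had 20.7 (19.3 and 19.6) in a peak of 11521 bp whose summit lay 6414 bp before the start and whose edge was 3163 bp from a CpG-rich coding start. Cd14 had 9.02 (5.80 and 10.7), Csf1r, the receptor of macrophage growth factor, 5.80 (4.74 and 6.49) and C1qc, a complement chain, 5.54 (4.50 and 5.82), and Cd68 was lowest at 3.03, with 3.40 in the replicate 1 list and none in the replicate 2 list. Ptprc, Adgre1, Cx3cr1, Itgam and Ms4a7 had no promoter peak. Smooth muscle markers had 3 of 3, Acta2 at 10.7 (4.90 and 12.5), Higd1b at 7.60 (5.92 and 9.62) and Cnn1 at 3.22 with none in either replicate list. The single satellite cell marker was Vcam1 at 7.08 (5.21 and 7.83), while Calcr had none. Tendon markers had Fmod at 7.55 (7.29 and 9.62) and Kera at 4.20 (3.55 and 4.61).

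Adipocyte markers had 3 of 9, and their members are known outside fat as well: Lipe, the hormone-sensitive lipase, at 24.8 (19.4 and 26.5), Fabp4, a fatty acid carrier also found in capillaries, at 15.7 (11.996 and 17.4) and Cd36, a fatty acid transporter of muscle and capillaries, at 14.7 (11.97 and 17.99). Adipoq, Plin1, Cidec, Retn and Cfd had no promoter peak. Among Schwann cell markers Prx had 3.61 and Sox10 3.48 with none in either replicate list, while S100b and Mag had no promoter peak. Among erythroid markers Klf1 had 28.3 (19.6 and 33.1). The Klf1 peak held such a stretch with 89 CpG, and its summit lay 1421 bp past the Klf1 start. Hba-a1, Hba-a2, Hbb-bs, Hbb-bt, Slc4a1, Hemgn and Epb42 had no promoter peak.

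Heart and liver genes served as lists of other organs. Of 9 cardiac genes with a CpG-poor start 1 had such a peak, Actc1, the cardiac alpha-actin, at 3.99 with none in the replicate 1 list and 4.92 in the replicate 2 list. Myh6, Myl7, Tnnt2, Tnni3, Gata4, Tbx5 and Mybpc3 had no promoter peak. Of 17 liver genes 1 had one, Apoa2, an apolipoprotein, at 3.66 (5.45 and 3.92), with a CpG-rich coding start 1179 bp from its edge. The other 16, among them Alb, Apoa1, Ttr and Cyp7a1, had none. Beside the 16.0% of all genes with a CpG-poor start, 1 of 9 is 11.1% and 1 of 17 is 5.88%. In the replicate 1 list no cardiac gene and 1 liver gene had such a peak, and in the replicate 2 list 2 cardiac genes and no liver gene, since the overlapping peak near Apoa2 was not a CpG-poor promoter peak in that list. With so few genes these shares are coarse.

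Sequence around the start differed between acetylated CpG-poor starts and the rest. Motifs were searched as fixed letters from 250 bp before to 50 bp after each start, on both strands except for the TATA box. That box, TATAAA on the gene's strand beginning 45 to 20 bp before the start, was present at 2.43% of the 2671 CpG-poor starts with a peak (2.21% in the replicate 1 list and 2.71% in the replicate 2 list). It was present at 4.79% of the 10607 CpG-poor starts without a peak, 0.787% of CpG-rich starts with a peak and 2.08% of all coding starts. The share at acetylated CpG-poor starts thus lay between that of acetylated CpG-rich starts and that of CpG-poor starts with no peak. CpG-poor starts with a peak, here and in the shares below, include those touched by mixed peaks alone. At the 2088 starts of CpG-poor promoter peaks the TATA box share was 2.92%. Leaving out the smell and pheromone receptors raised the share without a peak to 5.42%. Members at genes with CpG-poor starts alone had a TATA box at 5.19% of peaks, and those at genes with a CpG-rich start elsewhere at 1.77%.

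The E-box CAGCTG was found at 25.2% of CpG-poor starts with a peak (25.5% and 24.9%), 1591 of 10607 without one, 14.2% of CpG-rich starts with a peak and 15.5% of all coding starts. The letters GGGTGG, a core read by SP and KLF factors, were found at 35.7% with and 19.2% without a peak, and at 33.0% of all starts. The ETS letters CAGGAAG were found at 20.2% and 13.3%, and at 12.2% of all starts. The MEF2 letters CTAAAAATA or CTATTTATA were found at 2.43% and 1.41%, against 0.868% of all, and the CArG box at 2.02% and 1.40%, against 1.28% of all. The TEAD letters CATTCC were at 18.05% with and 17.0% without a peak (all starts 13.0%), and the PU.1 letters GAGGAAGT at 4.87% and 3.97% (3.004%). The E-box CACCTG was at 19.8% and 22.4% (19.8%), the GATA letters AGATAA at 13.4% and 19.1% (9.60%) and the AP-1 letters TGACTCA or TGAGTCA at 6.66% and 6.83% (4.26%). The sizes of these differences depended on the settings. That of CAGCTG, 10.2 percentage points, was 5.80 where CpG-poor meant an observed over expected ratio under 0.6 and 17.4 in a window of 500 bp either side. Under the same pair of settings that of ETS, 6.91 points, was 3.30 and 10.5, that of MEF2, 1.02 points, was 0.205 and 0.441, and that of GATA, -5.65 points, was -7.94 and -10.9. Without the smell and pheromone receptors ETS gave 4.23 and GATA -3.22 points. Base composition moved with these shares: the median G and C content within 500 bp was 49.3% at CpG-poor starts with a peak, 43.6% without and 60.2% at CpG-rich starts with a peak, and its part in them was not tested.

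**Figure D5:**
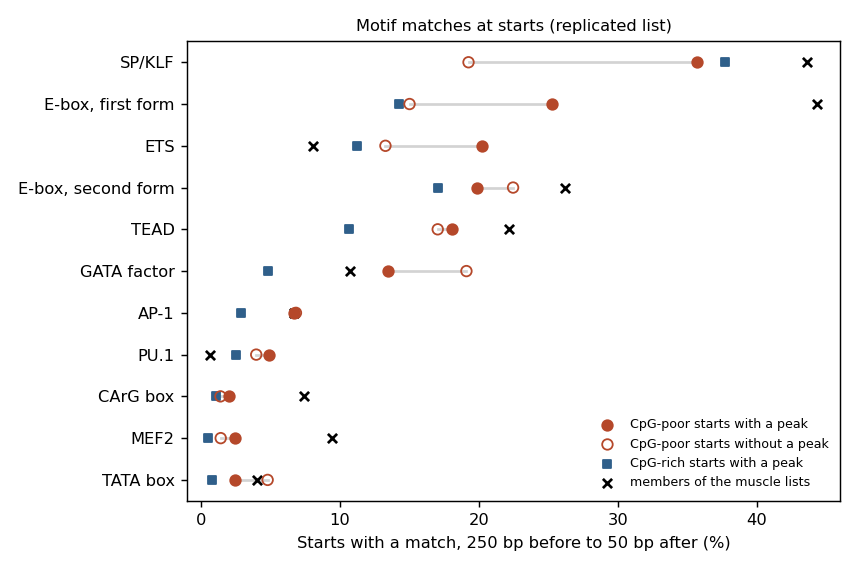
Percent of starts with a match to each motif (horizontal axis), from 250 bp before to 50 bp after the start, in the replicated list. Filled red circles are CpG-poor starts with a peak, open red circles those without, blue squares CpG-rich starts with a peak and crosses the starts at members of the muscle lists, where the first form of the E-box is CAGCTG and the second CACCTG. The filled circles lie to the right of the open ones for SP/KLF, the first E-box and ETS, and to the left for GATA, the second E-box and the TATA box.

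Some letters were at different shares in muscle genes and in the rest of the CpG-poor members. The 149 starts of muscle-list genes at members held CAGCTG at 44.3%, the MEF2 letters at 9.40%, the CArG box at 7.38% and a TATA box at 4.03% (6 starts). The 1939 starts of other genes at members held them at 25.3%, 2.11%, 1.60% and 2.84%. The ETS letters were at 8.05% of the muscle starts and 22.02% of the others. Shares of the AP-1 letters (6.71% and 7.07%), the GATA letters (10.7% and 12.4%) and CCAAT (34.2% and 35.8%, all coding starts 36.5%) lay closer together. The 14 CpG-poor starts of muscle-list genes with no peak held CAGCTG at 35.7% (5 starts) and no MEF2 letters, CArG box or TATA box. At the 59 starts of endothelial, fibroblast, smooth muscle and leukocyte genes the ETS letters reached 32.2%, the E-box CACCTG stood at 3.39% and the MEF2 letters at 1.69%. Several starts can belong to 1 gene and share bases, so these starts are not independent. The median G and C content within 500 bp was 50.9% at the muscle starts, 49.1% at the others and 49.8% at the 59.

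CpG-poor members themselves varied with their CpG count. Sorted by the highest count among the starts they touched, the 78 members with at most 4 CpG had a median signal value of 5.09 and a median width of 752.5 bp, the 375 with 5 to 9 had 5.41 and 1035 bp, the 646 with 10 to 14 had 5.67 and 1174.5 bp, and the 659 with 15 to 19 had 7.75 and 1415 bp. Signal value and width rose together over these classes. Just inside the limit, the 227 members with 18 or 19 CpG had 8.04 and 1412 bp. Just outside it, the 257 CpG-rich peaks whose lowest count was 20 or 21 had 10.9 and 1728 bp.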

How the data were processed

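The 4 libraries of H3K27ac ChIP-seq had been deposited as 4 peak lists in narrowPeak format on mm10: replicate 1, replicate 2, both pooled, and the replicated list. The signal value, the −log10 q-value and the summit offset of each peak were deposited by the authors. Signal values were compared within a list only, because their scale, the aligner and the caller were not given in the sources used here. Read depth is unknown, and no interval that needs it is given. Per the labels, replicates were pools of 2 tissue samples.

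Starts came from protein-coding transcripts of the GENCODE M21 basic set (39516 on 19 autosomes), and CpG counts from the GRCm38 sequence, within 500 bp either side. A replicate's value for a peak is that of its overlapping peak with the highest signal value. Genes named are the 12 strongest members shared with both replicates, the 8 widest, up to 4 strongest and the lowest of each list with those lacking a peak, the 4 strongest in neither replicate, and the 3 strongest with at most 5 CpG. Pvalb, Myh7, Myh7b and the genes with mixed peaks were added after their values were seen. A few genes of the lists are not reported here by name. The members and lists were chosen with earlier results of these data known. The overlap, class and motif functions were tested on simulated data. Python 3.11.15, numpy 2.4.6 and pandas 2.3.3 were used. Alternatives were each replicate list, the pooled list, −log10 q of at least 5, other windows, CpG limits and annotation, and other definitions of shared.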

Additional observations from a re-analysis of the deposited data

How the results depend on the processing

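No result given as a ratio or a difference changed direction under any alternative run, which covers the comparisons of width, signal value, isolation, sharing and TATA boxes. Direction is not defined for single shares, medians and counts. Of 355 alternative values 155 moved past the limit set for them. For most values that limit was the standard deviation between both replicate lists, and for counts it was 1.5 times. From 1 replicate list alone, 17.0% to 20.0% of CpG-poor starts were acetylated, 1482 to 1779 CpG-poor promoter peaks were found, the CpG-rich over CpG-poor ratio was 1.33 to 1.505 for median width and 2.92 to 3.84 for median signal value, the CpG-rich share standing alone was higher by 12.4 to 13.9 percentage points, and the TATA box difference between CpG-poor starts with and without a peak was -2.53 to -2.01 points. The definition of CpG-poor moved most. An observed over expected CpG ratio under 0.6 gave 4466 peaks, 35.8% of starts acetylated, ratios of 1.28 and 2.74, and 6.51 points. A limit of 15 CpG gave 1099 peaks and 15.3%, and a limit of 25 gave 23.1%. A −log10 q of at least 5 gave a width ratio of 1.25, and a promoter window of 500 bp 1.28. The CpG-rich share found in both replicate lists was higher by 20.1 points, by 14.1 at that q, and by 26.6 where 50% of both peaks had to overlap. The next 3 alternatives were chosen after seeing the data. Without the smell and pheromone receptors 25.7% of CpG-poor starts were acetylated and the TATA box difference was -3.01 points. Members with fewer than 20 CpG in every window inside the peak gave ratios of 2.05 and 4.99. The 1079 members at genes with CpG-poor starts alone gave 8.19 points. Of 80 gene list counts, 9 moved by over 1.5 times, all in lists where at most 3 genes had such a peak (tenocyte, Schwann cell, erythroid, cardiac and liver). The TATA box has a fixed position, so the wider motif window gave no value for it. No paired analysis was possible because there is 1 group of samples. The cause of these shifts was not tested. Unknown depth limits what the absence of a weak peak shows.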

Other observations

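Large gene families with CpG-poor starts were described by the same counts, beside the 16.0% of all genes with such a start. Of 1123 olfactory receptor genes 6 had a CpG-poor promoter peak (Olfr221, Olfr279, Olfr432, Olfr433, Olfr558 and Olfr718-ps1), of which Olfr432 and Olfr433 overlapped a peak of both replicate lists. Olfr433 had the highest signal value, 7.98 (8.05 in the replicate 1 list and 4.30 in the replicate 2 list). Of 328 vomeronasal receptor genes none had one, and of 26 kallikrein genes none. Of 70 keratin genes with a CpG-poor start 1 had one, Krt80 at 6.49 (6.34 and 5.98), and of 61 defensin genes 1, Defb25 at 2.97 with no overlapping peak in either replicate list.

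Cytochrome P450 and serpin genes had higher shares than these families, 10.98% and 13.2%. Both shares lay below the 16.0% of all genes with a CpG-poor start. Of 82 cytochrome P450 genes 9 had a CpG-poor promoter peak, and Cyp4f13 stood highest at 32.6 (25.6 and 33.5), followed by Cyp2j9 at 14.3 (11.6 and 11.8) and Cyp2j6 at 11.1 (9.41 and 11.2). Of 53 serpin genes 7 had one, led by Serpinb9, an inhibitor of granzyme B, at 21.5 (17.99 and 24.3) and Serpinb6b at 11.9 (9.94 and 13.9). Of the 49 proteasome genes 4 had a CpG-poor start, and 2 of these had such a peak: Psmb10, a subunit of the immunoproteasome, at 32.4 (27.5 and 31.6), in a peak that held a window with 54 CpG, and Psma6 at 7.73 (8.29 and 7.97). The genes named from these families were chosen after their values were seen.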
